A study of Mus musculus with 12 samples.

Results

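The stage before the primitive streak (Pre_PS) was compared with the early-streak stage (ES) in 4 of the 12 libraries of the series, 1 for each stage and mark. The embryos were C57BL/6 mouse embryos without any named genetic change or treatment, taken at E6.0 for Pre_PS and at E6.0 and E6.5 for ES, and their extraembryonic tissue was dissected away. CoBATCH, a single-cell method that cuts and tags chromatin wherever antibody-guided Tn5 binds, was applied to H3K27ac and to H3K4me1, and the cells of a stage were pooled into 1 peak list per mark. In such a pool a smaller share of marked cells and a weaker mark in each cell cannot be told apart.

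The Pre_PS lists had fewer covered bases and lower folds than the ES lists, so the members were chosen to make both stages alike in number. Pre_PS peaks that sat at the lowest fold enrichment and lowest p in their list were dropped, which left 11471 of 13398 H3K27ac peaks and 12027 of 36739 H3K4me1 peaks. The same number of ES peaks was then taken from the 36930 and 47849 deposited, by highest −log10 q, and these are called the matched ES lists below. The last H3K27ac ES peak inside the matched list had a −log10 q of 13.65 and the first outside it 13.64. For H3K4me1 both values were 10.46. The dropped Pre_PS peaks had a fold of 2.857 in H3K27ac, and the lowest peaks kept had 2.861. In H3K4me1 these folds were 1.972 and 1.973. With 1 library per stage and mark there is no replicate spread, so no test was possible. Intervals below are 95% Wilson intervals and cover counting error only.

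Both marks decorate open regulatory DNA. H3K27ac, written by the acetyltransferases p300 and CBP, lies at active promoters and enhancers, and H3K4me1, written by the MLL3 and MLL4 methyltransferases, lies at active enhancers and at enhancers that carry no acetylation yet, as well as on the flanks of promoters. The primitive streak forms at the posterior side of the epiblast, where Nodal, Wnt and Bmp signals turn on T and Eomes, and cells leave it as mesoderm and definitive endoderm.

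The 8 promoter windows printed here show the kinds of change described below. Each runs from 250 bases before to 50 after an annotated start in RefSeq (GRCm38.p6, the same build as mm10), is written 5′ to 3′ on the gene's strand, and has its CpG dinucleotides in capitals. The windows of Cdk4 (chr10:127063285-127063584, + strand) and Mrps36 (chr13:100744610-100744909, − strand) lay under H3K27ac peaks that were among the 10 strongest new at ES. Cdk4 encodes a cyclin-dependent kinase of the G1 phase and Mrps36 a mitochondrial protein.
Cdk4: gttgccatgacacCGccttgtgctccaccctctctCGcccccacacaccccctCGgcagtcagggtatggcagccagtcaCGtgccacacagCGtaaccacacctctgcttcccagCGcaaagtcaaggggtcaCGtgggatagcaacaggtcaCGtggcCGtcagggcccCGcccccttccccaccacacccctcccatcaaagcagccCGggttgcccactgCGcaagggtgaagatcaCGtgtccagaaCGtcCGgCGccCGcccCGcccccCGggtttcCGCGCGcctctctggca
Mrps36: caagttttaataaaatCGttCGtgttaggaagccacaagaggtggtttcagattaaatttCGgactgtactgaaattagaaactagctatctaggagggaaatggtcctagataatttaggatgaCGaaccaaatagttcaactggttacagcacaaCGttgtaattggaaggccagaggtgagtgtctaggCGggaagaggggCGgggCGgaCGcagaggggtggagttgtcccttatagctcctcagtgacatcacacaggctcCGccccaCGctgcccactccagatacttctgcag
The windows of Eomes (chr9:118477939-118478238, + strand), T (chr17:8434173-8434472, + strand) and Nodal (chr10:61417722-61418021, + strand) belong to the T-box factors and the ligand that act in streak formation, and each had a Pre_PS H3K4me1 peak beside the window and an ES H3K4me1 peak that overlapped it.
Eomes: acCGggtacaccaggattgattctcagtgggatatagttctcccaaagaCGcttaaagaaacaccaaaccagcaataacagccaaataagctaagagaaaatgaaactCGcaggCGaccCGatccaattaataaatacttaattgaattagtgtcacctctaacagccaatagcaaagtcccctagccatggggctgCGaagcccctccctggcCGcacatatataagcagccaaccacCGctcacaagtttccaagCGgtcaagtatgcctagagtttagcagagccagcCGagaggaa
T: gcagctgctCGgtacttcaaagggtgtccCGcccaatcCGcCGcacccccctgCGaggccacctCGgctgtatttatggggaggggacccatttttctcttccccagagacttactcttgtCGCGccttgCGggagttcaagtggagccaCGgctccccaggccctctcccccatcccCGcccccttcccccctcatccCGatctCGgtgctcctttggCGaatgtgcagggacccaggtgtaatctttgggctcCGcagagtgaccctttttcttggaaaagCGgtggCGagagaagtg
Nodal: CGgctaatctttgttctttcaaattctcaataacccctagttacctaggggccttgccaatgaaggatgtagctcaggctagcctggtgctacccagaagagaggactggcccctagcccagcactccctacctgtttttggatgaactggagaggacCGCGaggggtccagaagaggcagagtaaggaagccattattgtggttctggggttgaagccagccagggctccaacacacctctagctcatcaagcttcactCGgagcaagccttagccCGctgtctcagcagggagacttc
The windows of Hoxa13 (chr6:52260831-52261130, − strand), a homeobox gene of late posterior patterning, Uncx (chr5:139543648-139543947, + strand), a homeobox gene of somites and neurons, and the upstream start of Gata2 (chr6:88193641-88193940, + strand), a factor of blood stem cells and trophoblast, lay under Pre_PS H3K27ac peaks and under ES peaks that fell outside the matched list.
Hoxa13: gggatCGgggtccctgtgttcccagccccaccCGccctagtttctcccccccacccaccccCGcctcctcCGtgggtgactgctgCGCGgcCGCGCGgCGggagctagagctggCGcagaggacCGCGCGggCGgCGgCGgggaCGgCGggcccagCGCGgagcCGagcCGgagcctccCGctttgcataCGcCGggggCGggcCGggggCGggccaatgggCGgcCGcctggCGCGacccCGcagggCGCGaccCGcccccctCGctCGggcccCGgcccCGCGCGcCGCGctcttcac
Uncx: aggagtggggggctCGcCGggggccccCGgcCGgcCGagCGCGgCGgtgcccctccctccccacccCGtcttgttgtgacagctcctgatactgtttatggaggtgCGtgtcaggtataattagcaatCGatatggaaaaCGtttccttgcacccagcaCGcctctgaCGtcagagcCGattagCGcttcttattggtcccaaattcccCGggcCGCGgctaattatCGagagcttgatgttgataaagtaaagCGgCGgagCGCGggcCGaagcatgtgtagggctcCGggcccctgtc
Gata2: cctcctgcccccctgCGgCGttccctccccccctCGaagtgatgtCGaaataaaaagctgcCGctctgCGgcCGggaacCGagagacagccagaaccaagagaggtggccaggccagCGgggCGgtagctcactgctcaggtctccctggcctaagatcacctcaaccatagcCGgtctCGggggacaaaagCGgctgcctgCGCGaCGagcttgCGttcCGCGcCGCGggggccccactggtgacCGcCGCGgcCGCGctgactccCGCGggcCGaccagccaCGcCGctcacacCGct
The Cdk4 window holds 22 CpG and 67.0% G and C, and the Mrps36 window 11 and 48.3%. The Hoxa13 window holds 45 CpG and 81.0% G and C, and the Eomes window 10 and 47.3%.

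The regions marked before the streak were nearly all still marked when it appeared. Of the kept Pre_PS H3K27ac peaks, 10889 of 11471 (94.9%, 94.5 to 95.3) overlapped an ES H3K27ac peak by at least 1 bp, and of the H3K4me1 peaks 11131 of 12027 (92.6%) did. Inside the matched ES lists the shares were 72.1% and 58.9%. The dropped lowest peaks overlapped an ES peak less often, in 49.1% of 1927 for H3K27ac and 38.0% of 24712 for H3K4me1. In the other direction 2994 of the matched ES H3K27ac peaks (26.1%, 25.3 to 26.9) and 2840 of the H3K4me1 peaks (23.6%) overlapped no Pre_PS peak at all, and these are called new at ES. A further 277 H3K27ac peaks (2.41%) and 2337 H3K4me1 peaks (19.4%) overlapped lowest Pre_PS peaks only. The new share depends on how far down the ES list one reads, as the plot of overlap by rank shows. Among the 2000 strongest ES H3K27ac peaks 92.05% had a Pre_PS peak, and among those ranked 10001 to 12000 it was 51.3%. When 50% of a peak had to be covered, 41.7% of the matched ES H3K27ac peaks and 56.4% of the H3K4me1 peaks counted as new, beside matched ES peaks with a median width of 1231 and 1178 bp and kept Pre_PS peaks of 928 and 674 bp.

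**Figure D1:**
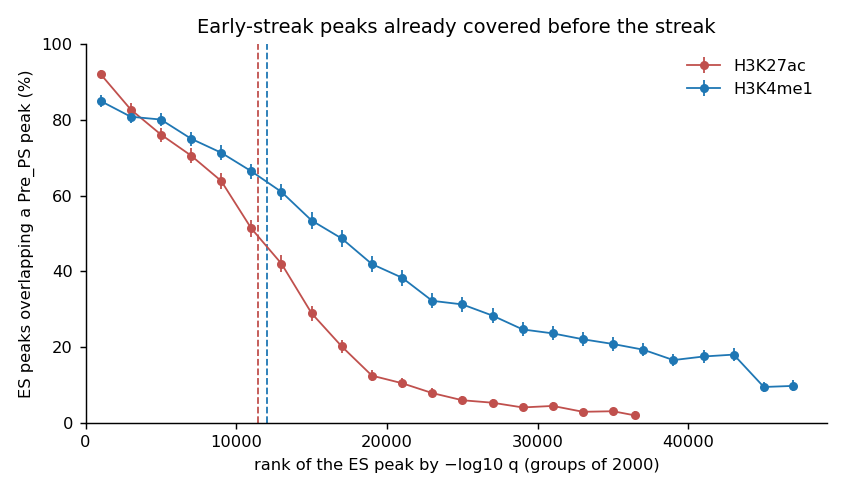
Share of ES peaks that overlap a Pre_PS peak of the same mark (y axis, percent) against the rank of the ES peak by −log10 q in groups of 2000 (x axis), with 95% Wilson bars. The share starts at 92.05% for H3K27ac and 84.95% for H3K4me1 and ends at 1.94% and 9.73%, and the dashed lines mark the matched numbers, 11471 and 12027.

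The strongest Pre_PS peaks were mostly sites shared by both marks and found at every stage. The highest Pre_PS peak of both marks spans chr17:39842997-39848848 in H3K27ac (mm10), 5852 bp with the authors' fold of 202, over the ribosomal RNA pseudogene Rn18s-rs5 and the start of the long noncoding RNA AY036118. Of the 10 strongest Pre_PS H3K27ac peaks 6 were also among the 10 strongest of H3K4me1. In each mark 9 of these 10 overlapped a matched ES peak and a peak at all 6 stages. The shared sites include one 60.9 kb from Axin2, one inside Cdk8, one inside Filip1l, one 24.0 kb from Rpp21 and one 282 kb from Pex2. Within 1 kb of the end of a protein-coding gene lay 2 of the 10 in H3K27ac and 0 of the 10 in H3K4me1. The exceptions were a peak 9.69 kb from Chst1 in H3K27ac (fold 19.5) and one inside Dock1 in H3K4me1 (fold 6.85), and neither overlapped a peak of any other library. Multi-copy sequence such as ribosomal DNA gathers reads from many loci, and the authors' handling of such reads was not known here.

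The H3K27ac regions new at ES were led by sites at gene ends. The 10 strongest included those by Mrps36, Nfe2l1, Fmc1, Cdk4, Soat1, Zbtb5, Exo1, Rai1 and Efcab2, with 8 of the 10 over a gene end and those of Nfe2l1 and Rai1 inside the gene. Mrps36 (958 bp, fold 27.7) and Fmc1 (876 bp, fold 23.7) encode mitochondrial proteins, and Exo1 (990 bp, fold 23.1) encodes an exonuclease of DNA repair. All 10 overlapped an H3K27ac peak at MS, LS, OB and EHF. At 9 of the 10, with Exo1 as the exception, an H3K4me1 peak was already present at Pre_PS. The strongest new H3K4me1 regions lay by Bnip3, Inha, Pik3r1, Nkain4, Stk3, P4ha1, Nfkbiz, Tfam, Zfp280b and Fitm2. Bnip3 (1255 bp, fold 20.2) encodes a mitochondrial factor of hypoxia and autophagy, Tfam (1181 bp, fold 17.8) the main mitochondrial transcription factor, and Inha (1030 bp, fold 19.1) the inhibin alpha subunit. Pre_PS H3K27ac was already present at 8 of these 10, and absent at those of Inha and Pik3r1.

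Over the whole sets, new regions were further from gene ends than the rest of the matched ES lists. Of the new H3K27ac regions 68.8% lay within 1 kb of a gene end, against 80.9% of the matched ES peaks that had a Pre_PS peak. For H3K4me1 the shares were 64.0% and 74.0%. New regions also had lower folds and were narrower. Their median fold was 11.9 against 14.3 in H3K27ac and their median width 899 bp against 1362 bp. Nearly every new region was found again later: 2974 of 2994 H3K27ac regions (99.3%) overlapped a peak at each of MS, LS, OB and EHF, and 2828 of 2840 H3K4me1 regions (99.6%) did. The same held of matched ES peaks with a Pre_PS peak, at 99.96% and 99.95%.

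Many new regions already carried the other mark at Pre_PS, though a smaller share than of the other matched ES peaks. A Pre_PS H3K4me1 peak lay at 1800 of the 2994 new H3K27ac regions (60.1%, 58.4 to 61.9), against 82.2% of the matched ES H3K27ac peaks that had Pre_PS H3K27ac. Far from gene ends (over 1 kb) the shares were 59.2% of 933 and 81.6% of 1615. Pre_PS H3K27ac lay at 1345 of the 2840 new H3K4me1 regions (47.4%, 45.5 to 49.2), at 31.6% of the 1021 far ones and at 56.2% of the 1819 near ones. It lay at 75.4% of the matched ES H3K4me1 peaks that had Pre_PS H3K4me1, at 61.0% of the 2391 far ones and at 80.5% of the 6796 near ones. At ES itself 99.9% of the new H3K27ac regions carried H3K4me1 and 99.6% of the new H3K4me1 regions carried H3K27ac. The Pre_PS H3K4me1 list used here includes its lowest peaks and is longer than the Pre_PS H3K27ac list, 36739 against 13398 peaks, and the part of that difference in these shares was not tested.

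Peaks absent at ES were few and mostly far from genes. There were 582 in H3K27ac (5.07%) and 896 in H3K4me1 (7.45%). Over 1 kb from any gene end lay 95.2% and 94.2% of them, against 29.4% and 41.9% of the kept Pre_PS peaks with an ES peak, and over 50 kb lay 33.7% in both marks. Few were found at every later stage: 23.0% (19.8 to 26.6) of those in H3K27ac and 45.0% (41.8 to 48.2) of those in H3K4me1 overlapped a peak at any of MS to EHF, and 2.75% and 4.24% overlapped one at each of them. Of the kept Pre_PS peaks with an ES peak, 99.7% and 99.3% overlapped one at any of MS to EHF, and 96.8% and 92.6% at each. Pre_PS peaks of the other mark lay at 8.42% and 1.56% of the absent peaks, against 76.9% and 60.4% of the kept peaks with an ES peak. The 10 strongest absent peaks in H3K27ac, among them those by Chst1, Lrrtm4, Atp23, Tcf7l2, Pgbd5, Spata7, Hhipl2, Gm36718 and Foxk1, had folds of 10.2 to 19.5 and overlapped no H3K27ac peak at a later stage. H3K4me1 peaks were listed at any stage only at the one 146 kb from Tcf7l2, at LS and EHF. In H3K4me1 the strongest absent peaks had folds of 4.88 to 6.85, and those with Rab5c, Acvr2a and Fam124a as the nearest gene overlapped an H3K4me1 peak at a later stage.

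**Figure D2:**
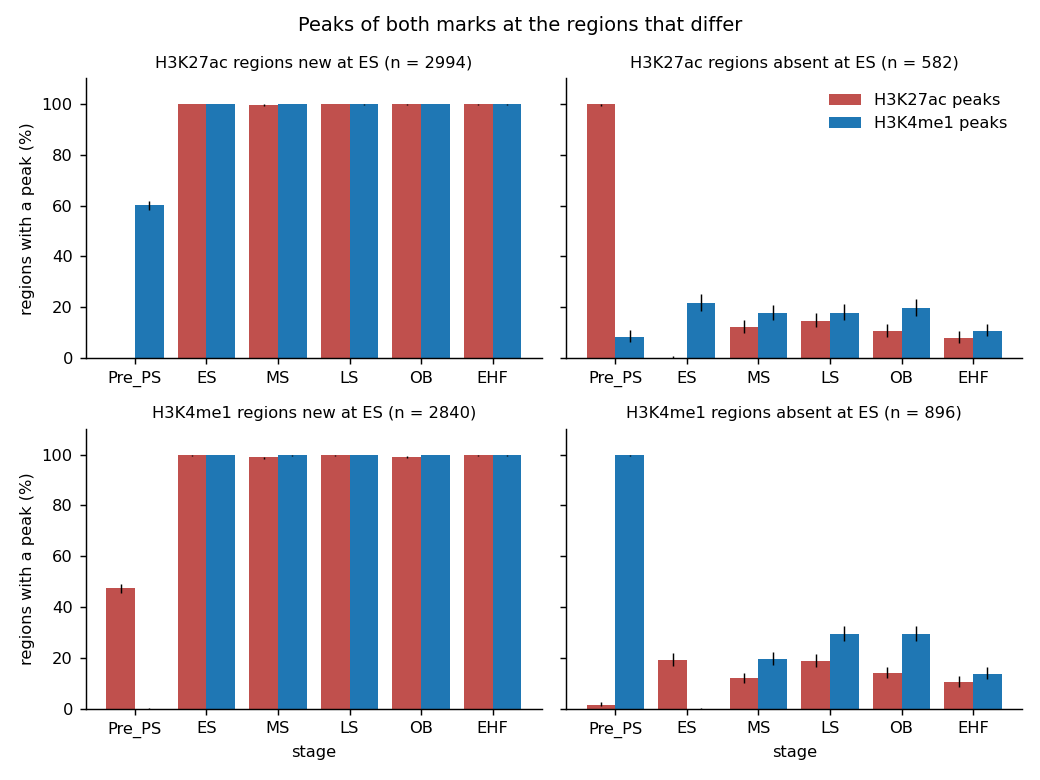
Share of regions (y axis, percent, 95% Wilson bars) that overlap an H3K27ac peak (red) or an H3K4me1 peak (blue) at each of the 6 stages (x axis), for regions new at ES (left) and absent at ES (right) in H3K27ac (top) and H3K4me1 (bottom). New regions lie at 98.9% or above at ES and every later stage, and absent regions at 29.4% or below from ES on, in both marks.

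To compare genes, covered bases were counted in each gene's territory, the bases nearer to an end of that protein-coding gene than to any other and within 100 kb, and divided by the covered Mb of the list. This share is given in covered bp per covered Mb. A gene was called where the share plus 20, over the other share plus 20, was at least 2-fold. In H3K27ac 2876 of 12536 genes with covered bases (22.9%) were higher at ES and 1725 (13.8%) higher at Pre_PS. In H3K4me1 3842 of 12446 (30.9%) were higher at ES and 2263 (18.2%) higher at Pre_PS. Between ES and MS, a pair of libraries with longer lists treated alike, 7.89% of genes were higher at MS and 8.41% higher at ES in H3K27ac, and 10.9% and 11.5% in H3K4me1. The balance of the calls rests on the matching. With ES cut to the same covered bases in place of the same number of peaks, calls higher at ES made up 42.7% of H3K27ac calls where they had made up 62.5%, and 42.6% of H3K4me1 calls where they had made up 62.9%. Counts of a gene list below are to be read against these shares of all genes, which already lean to ES, and many change direction with the matching. In the covered-base setting 2232 and 2990 of 11648 genes were higher at ES and at Pre_PS in H3K27ac, and 2938 and 3964 of 10949 in H3K4me1. With the whole ES list 68.3% of H3K27ac calls and 69.4% of H3K4me1 calls were higher at ES. List counts under either setting are to be read against those numbers.

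The called genes were then looked up in the whole list of the other stage. These lists differ in length: the whole ES lists cover 41.4 Mb in H3K27ac and 49.4 Mb in H3K4me1. The whole Pre_PS lists, lowest peaks included, cover 14.3 and 23.4 Mb. The counts in the 2 directions are therefore not alike, and the part of list length in them was not tested. Of the 2876 genes higher at ES in H3K27ac, 2110 (73.4%) had no base covered by any Pre_PS H3K27ac peak, and in H3K4me1 989 of 3842 (25.7%) had none. In the kept Pre_PS lists, which the call itself used, 84.2% and 85.7% of these genes had none, so such counts are partly set by the call. Of the 1725 genes higher at Pre_PS in H3K27ac, 51 (2.96%) had no base covered in the whole ES list, and 1423 (82.5%) had at least as many covered bases there as in the kept Pre_PS list. In H3K4me1 these numbers were 47 (2.08%) and 1972 (87.1%) of 2263. Most genes called higher at Pre_PS thus had as many covered bases at ES, in peaks below the matched number. In the matched ES lists 79.5% of them in H3K27ac and 75.8% in H3K4me1 had none. The same shares over all genes tested are not given here, so these counts describe the called genes alone. Genes called higher at ES in both marks numbered 1087, which is 37.8% of the H3K27ac calls and 28.3% of the H3K4me1 calls. Of all genes tested, 30.9% in H3K4me1 and 22.9% in H3K27ac were higher at ES. Genes higher at Pre_PS in both marks numbered 445, or 25.8% and 19.7%, beside 18.2% of all genes tested in H3K4me1 and 13.8% in H3K27ac. Opposite calls were made for 314 genes higher at ES in H3K27ac and at Pre_PS in H3K4me1, and for 267 the other way. Across the 11090 genes with covered bases in both marks, which share the 4 libraries and their depths, the log2 ratios had a Pearson r of 0.18 and a Spearman rho of 0.16.

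The core genes of the primitive streak were covered at both stages. All 17 genes of the streak list had kept Pre_PS H3K4me1 bases and 15 had kept Pre_PS H3K27ac bases, the exceptions being Nodal and Wnt8a. Such coverage was not particular to streak genes. Kept Pre_PS H3K27ac bases were at 18 of 20 neural, 16 of 17 Fgf, 12 of 18 housekeeping and 2 of 20 adult tissue genes. For H3K4me1 it was 17 of 20 neural, 16 of 16 Bmp, 8 of 18 housekeeping and 5 of 20 adult tissue genes. The share over all genes is not given here. In H3K27ac 3 of the 17 streak genes were called higher at ES and 1 higher at Pre_PS, beside 22.9% and 13.8% of all genes, with a median log2 ratio of 0.24 beside 0.07. In H3K4me1 it was 1 and 1, beside 30.9% and 18.2%, with a median of 0.02 beside 0.14. With ES matched by covered bases, 7 of 16 were higher at Pre_PS and 3 higher at ES in H3K27ac, and 4 and 3 of 17 in H3K4me1. T, the Brachyury factor of the streak, had an H3K27ac share of 42.0 at Pre_PS and 53.0 at ES and an H3K4me1 share of 39.5 and 49.7. Its H3K27ac peak was 793 bp wide with a fold of 3.75 at Pre_PS and 1713 bp with a fold of 11.5 at ES, and the bases outside the share lie nearer to another gene. Mixl1, a homeobox factor of mesendoderm, had 144 and 85.3 in H3K27ac and 67.8 and 65.9 in H3K4me1. Fgf8, the streak's fibroblast growth factor, had 295 and 294 in H3K27ac and 158 and 271 in H3K4me1. Wnt3, the ligand needed for streak formation, had 127 and 119 in H3K27ac and 331 and 474 in H3K4me1. None of these 4 genes was called in either mark.

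Eomes and Nodal show how single peaks changed. At Eomes the Pre_PS H3K27ac peak chr9:118478526-118479565 (1040 bp, fold 5.23) began inside the gene, past the promoter window printed above. The ES peak chr9:118476758-118479853 (3096 bp, fold 21.2) covered the window. Its H3K27ac share went from 81.0 to 175, a log2 ratio of 0.95 that did not reach the call, and its H3K4me1 share from 88.9 to 169. Nodal had no Pre_PS H3K27ac peak in its territory, and its ES peak chr10:61418030-61419629 (1600 bp, fold 16.2) gave a share of 90.7, called higher at ES. A Pre_PS H3K4me1 peak of 989 bp (fold 2.32) already lay inside that region, and the Nodal H3K4me1 share was 88.1 at Pre_PS and 89.9 at ES. Wnt3a, a ligand of the posterior streak, was called higher at Pre_PS in both marks, with 149 and 45.9 in H3K27ac and 302 and 63.0 in H3K4me1. Neither call stands under every setting. The H3K27ac log2 ratio was 0.09 with the whole ES list and 2.52 with the upper 50% of the Pre_PS list, and the H3K4me1 ratio was 0.20 with the lowest Pre_PS peaks kept and 0.07 with MS in place of ES.

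Among the lists of embryonic genes, nascent mesoderm had the most H3K27ac calls towards ES. In H3K27ac 6 of the 13 nascent mesoderm genes with covered bases were higher at ES and 3 higher at Pre_PS, beside 22.9% and 13.8% of all genes (median 0.59). In H3K4me1 it was 3 and 4 of 14, beside 30.9% and 18.2%. With ES matched by covered bases the direction turned in H3K27ac, to 2 and 5 of 10. Snai1, the repressor of E-cadherin in the epithelial-mesenchymal transition, had an H3K27ac share of 205 at Pre_PS and 684 at ES and an H3K4me1 share of 105 and 633, log2 ratios of 1.65 and 2.39. Pre_PS H3K27ac peaks of 1649 and 416 bp lay inside a single ES peak of 6443 bp over the gene. With the upper 50% of the Pre_PS list alone the Snai1 H3K27ac ratio turned to −4.06. Pdgfra, the receptor of early mesoderm, had no Pre_PS H3K27ac peak and a share of 227 at ES. Its H3K4me1 share was 46.9 at Pre_PS and 221 at ES, a call that turned to −1.74 with ES matched by covered bases. Rspo3, a Wnt agonist, had no Pre_PS H3K27ac bases and 106 at ES. Mef2c, a factor of heart and muscle from the cardiac list, had none and 243.

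In the signalling lists calls went both ways. In H3K27ac the genes higher at ES and higher at Pre_PS were 2 and 1 of 14 for the Nodal pathway, 3 and 3 of 17 for Wnt, 2 and 0 of 17 for Fgf, 3 and 2 of 16 for Bmp and 3 and 1 of 14 for the epithelial-mesenchymal transition. In H3K4me1 they were 2 and 2 of 13, 3 and 4 of 17, 3 and 2 of 17, 4 and 4 of 16 and 2 and 1 of 12. The shares over all genes were 22.9% and 13.8% in H3K27ac and 30.9% and 18.2% in H3K4me1. With ES matched by covered bases the Nodal pathway had 2 and 7 of 14 in H3K27ac and 1 and 8 of 11 in H3K4me1, Wnt 1 and 5 of 14 and 3 and 6 of 16, and the epithelial-mesenchymal transition 2 and 3 of 12 and 2 and 4 of 12. Bmp4, a ligand that induces the streak from the extraembryonic ectoderm, had 45.0 and 251 in H3K27ac, a call that turned to −1.70 with ES matched by covered bases. Id1, a target of Bmp signalling, had 177 and 526 in H3K4me1. Tcf7, a Wnt effector, had 500 at Pre_PS and no matched ES bases in H3K4me1, with 6239 bp in the whole ES list. Vim, the mesenchymal intermediate filament, had no Pre_PS H3K27ac bases and 96.0 at ES.

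Among the epiblast genes, Dnmt3b, Fgf5 and Sox2 were called in neither mark. In H3K27ac 4 of the 19 core and primed epiblast genes with covered bases were higher at ES and 2 higher at Pre_PS, beside 22.9% and 13.8% of all genes. In H3K4me1 it was 5 and 1 of 19, beside 30.9% and 18.2%. Matching ES by covered bases gave H3K4me1 calls of 8 and 9 of 19. The de novo methyltransferase gene Dnmt3b had 108 and 104 in H3K27ac, Fgf5 had 111 and 88.7, and the epiblast chromatin factor Utf1 had 93.1 and 88.3. In H3K4me1 Utf1 was called higher at ES, and its log2 ratio turned to −0.50 when the lowest Pre_PS peaks were kept. Sox2 had 299 and 165 in H3K27ac and 246 and 498 in H3K4me1, opposite in direction and not called in either. Otx2, a factor of the primed and anterior epiblast, had no kept Pre_PS bases in either mark and 57.2 in H3K27ac and 174 in H3K4me1 at ES. In the whole ES H3K27ac list Otx2 had 7 peaks and at Pre_PS a single lowest peak of 415 bp. Pou5f1 had H3K4me1 shares of 70.8 and 39.0 and in H3K27ac a lowest Pre_PS peak of 3022 bp and an ES peak of 1013 bp outside the matched list. At Nanog no kept or matched peak of either mark was found. Of the naive pluripotency genes 1 of 8 was higher at ES and 3 higher at Pre_PS in H3K27ac, and 1 and 1 of 7 in H3K4me1, beside 22.9% and 13.8% and 30.9% and 18.2% of all genes. With the whole ES list the H3K27ac calls turned to 3 and 2 of 10. Esrrb, a nuclear receptor of naive cells, had an H3K27ac share of 136 at Pre_PS and none in the matched ES list (5165 bp in the whole list), and Tfcp2l1 had none and 61.8. Sox3 had 152 and none, with 5470 bp in the whole ES list.

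**Figure D3:**
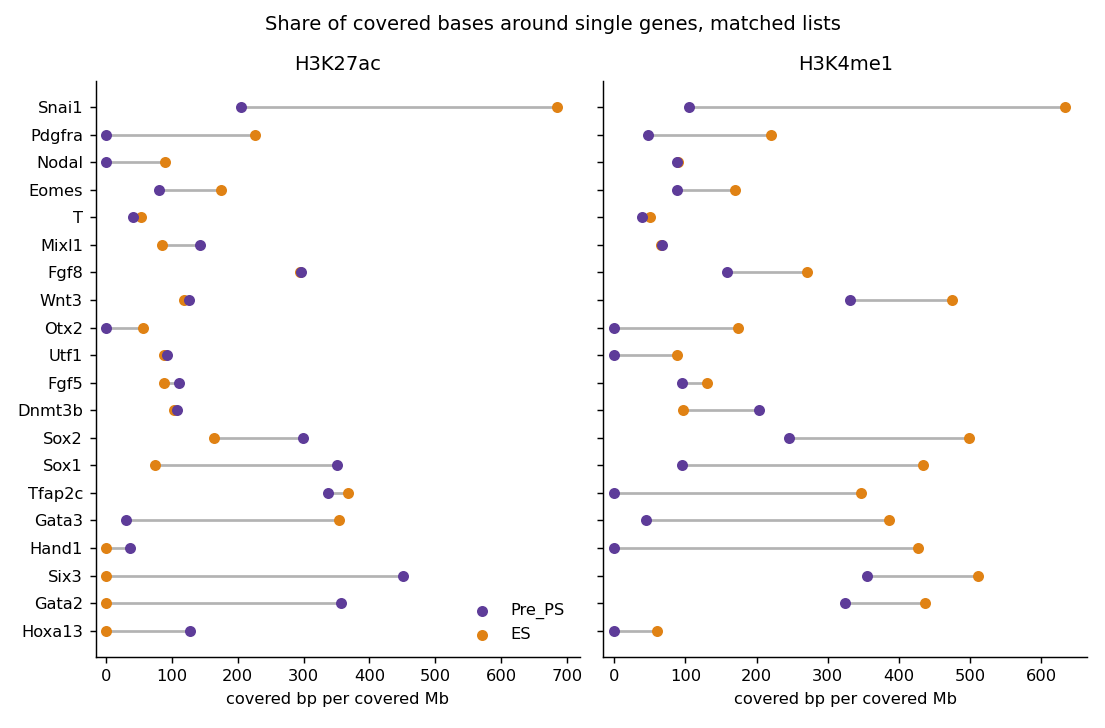
Share of the list's covered bases in the territory of 20 genes (x axis, covered bp per covered Mb) at Pre_PS (purple) and ES (orange) in the kept Pre_PS and matched ES lists, for H3K27ac (left) and H3K4me1 (right). Snai1 lies higher at ES in both marks, T goes from 42.0 to 53.0 in H3K27ac, and Six3, Gata2 and Hoxa13 are at 0 in the matched ES H3K27ac list and higher at ES in H3K4me1, where of these Hoxa13 alone reached the call.

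The kept Pre_PS H3K27ac peaks, weak ones included, lay at many genes of the Hox and Cdx, cardiac and neural lists. Of the 13 Hox and Cdx genes with covered bases, 0 were higher at ES and 8 higher at Pre_PS (median −1.86, on a scale where a gene without bases counts as the 20 added). This list is mostly of posterior genes but also holds Hoxb1 and Hoxd1, and its Cdx2 is in the streak and trophoblast lists as well. Of the cardiac, blood and lateral mesoderm genes 2 and 8 of 16 were called (median −1.09), and of the neural ectoderm genes 1 and 7 of 18 (median −0.27). The background for higher at Pre_PS is the 13.8% given above. Hoxa13 had a share of 128 at Pre_PS, Hoxa10 115 and Hoxb8 105, all with none in the matched ES list. Gata2 had 356, Tbx4, a hindlimb factor, 194, and Six3, a forebrain factor, 451, again with none at ES. Sox1, the earliest neural Sox gene, had 350 and 74.2, and Lhx5 297 and 36.6. In the whole ES list these genes had more covered bases than at Pre_PS. Gata2 had 4576 bp at Pre_PS and 10735 bp in the whole ES list, Six3 5788 and 12033 bp, and Hoxa13 1641 and 3294 bp. The Six3 ratio was 0.13 when the lowest Pre_PS peaks were kept. The ES peak over Hoxa13 (1578 bp, fold 8.52) had a −log10 q of 11.9, below the 13.65 at the end of the matched list. All 16 Hox and Cdx genes had bases in the whole ES list. With that list in place of the matched one the calls were 2 and 1 for Hox and Cdx, 3 and 1 for cardiac and 1 and 2 for neural genes. With ES matched by covered bases those higher at Pre_PS numbered 13 of 13, 10 of 16 and 12 of 18.

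In H3K4me1 the calls towards ES in the same lists were near the share of all genes. Higher at ES and at Pre_PS were 5 and 2 of 14 Hox and Cdx genes, 5 and 0 of 17 cardiac genes and 6 and 0 of 19 neural genes, beside 30.9% and 18.2% of all genes. Hand1, a factor of extraembryonic and cardiac mesoderm, had no kept Pre_PS bases and 427 at ES. Gata6, of endoderm and heart, had none and 237, but the ratio was −0.03 when the lowest Pre_PS peaks were kept. Sox1 had 95.4 and 434, Irx3 117 and 405, and En2, of the midbrain, none and 328. Hoxb1 had no Pre_PS peak of any strength in either mark and an ES H3K4me1 share of 127, and Hoxa9 had no kept bases and 128. With the whole ES list cardiac genes numbered 2 higher at ES and 5 higher at Pre_PS, and neural genes 3 and 4, and with ES matched by covered bases they numbered 5 and 3, and 4 and 6. Hox and Cdx genes then numbered 5 and 5 of 13.

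**Figure D4:**
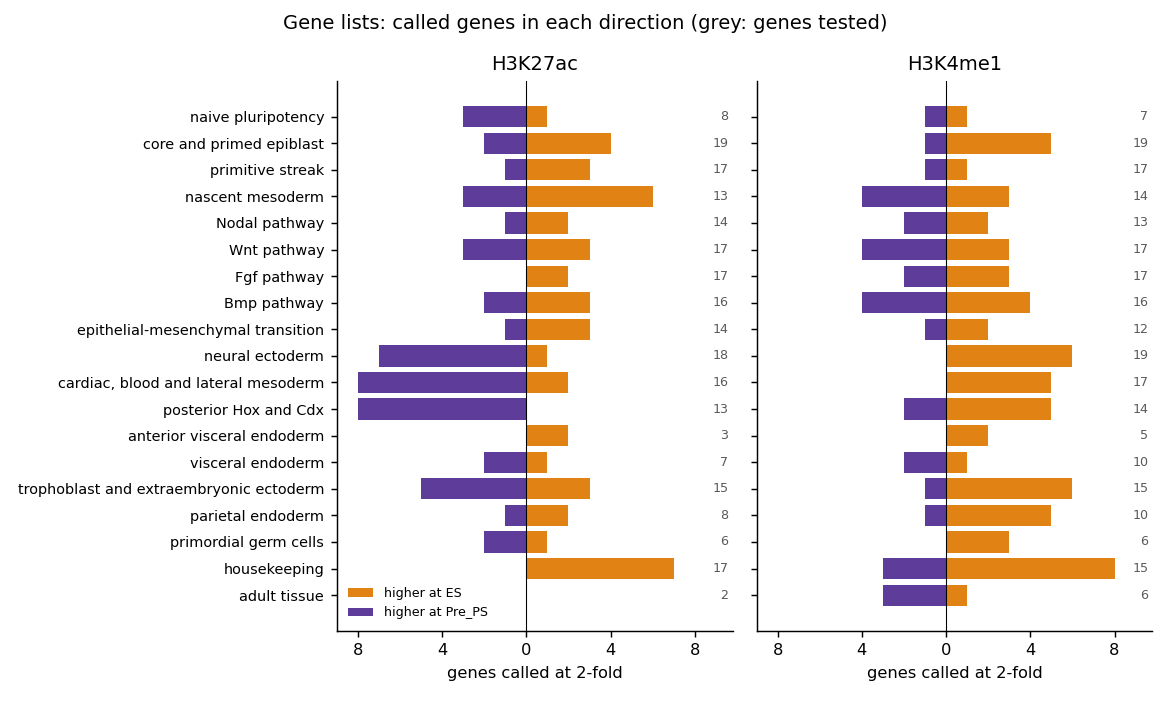
Number of genes called at least 2-fold higher at ES (orange, right) or at Pre_PS (purple, left) in each of 19 gene lists (rows), for H3K27ac (left panel) and H3K4me1 (right panel), with the number of genes tested in grey. Hox and Cdx, cardiac and neural lists have more calls to Pre_PS in H3K27ac and to ES in H3K4me1, and housekeeping genes more to ES in both marks. All genes lean to ES, with 22.9% higher at ES and 13.8% at Pre_PS in H3K27ac and 30.9% and 18.2% in H3K4me1. The H3K4me1 calls to ES of the Hox and Cdx, cardiac and neural lists are near that share. With ES matched by covered bases H3K4me1 calls to ES and Pre_PS are 3 and 5 for housekeeping, 5 and 5 for Hox and Cdx and 4 and 6 for neural genes. With the whole ES list Hox and Cdx (2 and 1) and cardiac genes (3 and 1) point to ES in H3K27ac, and cardiac (2 and 5) and neural genes (3 and 4) to Pre_PS in H3K4me1.

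Of the housekeeping genes 7 of 17 were higher at ES and 0 at Pre_PS in H3K27ac (median 0.80), beside 22.9% and 13.8% of all genes. In H3K4me1 it was 8 and 3 of 15 (median 1.07), beside 30.9% and 18.2%, where the summed share went the other way, from 1005 to 901. Under matching by covered bases the H3K27ac calls were 7 and 2 of 17, and the H3K4me1 direction turned, to 3 and 5 of 11. Tbp, the TATA-binding protein gene, had no Pre_PS bases in either mark and 82.9 in H3K27ac and 74.7 in H3K4me1 at ES. Polr2a, the large subunit gene of RNA polymerase II, had none and 65.4 in H3K27ac. Tubb5 had 241 at Pre_PS and none in the matched ES H3K4me1 list.

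Among all genes, the largest gain in share was at Nfic, a nuclear factor I gene, in both marks, with 487 at Pre_PS and 1157 at ES in H3K27ac and 551 and 1697 in H3K4me1. With the upper 50% of the Pre_PS list the H3K27ac ratio turned to −4.57. Amotl2, a regulator of cell junctions and Hippo signalling, had 148 and 732 in H3K27ac. The largest falls in H3K27ac were at Plec, encoding the linker protein plectin, with 1764 and 128, and at Bcor, a polycomb corepressor, with 1455 and 672, a ratio that turned to 0.20 when the lowest Pre_PS peaks were kept. Tbx2 had 639 and none, Spen 680 and 132, and Kmt2d, which encodes an H3K4 methyltransferase, 642 and 111. Plec had 22.6 kb covered at Pre_PS and 40.9 kb in the whole ES list, and its ratio turned to 0.29 when the lowest Pre_PS peaks were kept. In H3K4me1 Ints1, a subunit of the Integrator complex, had 1140 and none, and Crocc, of the ciliary rootlet, 1438 and 325.

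Markers of tissue outside the embryo proper were seen at both stages. Of the 21 trophoblast and extraembryonic ectoderm genes 13 had kept Pre_PS H3K27ac bases and 11 had matched ES bases, and the summed share was 2877 and 2045. In H3K4me1 it was 2592 and 3740. Tfap2c had no kept Pre_PS H3K4me1 bases and 347 at ES, and Gata3 had 45.2 and 386 in H3K4me1 and 31.1 and 354 in H3K27ac, where the order turned to −1.35 with ES matched by covered bases. The placental markers Tpbpa and Prl3d1 had no peak at either stage in either mark. Of the visceral endoderm genes, Ttr, Afp and Cubn had none at either stage in either mark, and the summed H3K27ac share was 1273 and 1201. Calls towards ES and Pre_PS in H3K27ac were 3 and 5 of 15 for trophoblast, 1 and 2 of 7 for visceral endoderm, 2 and 0 of 3 for anterior visceral endoderm and 2 and 1 of 8 for parietal endoderm, beside 22.9% and 13.8% of all genes. In H3K4me1 they were 6 and 1 of 15, 1 and 2 of 10, 2 and 0 of 5 and 5 and 1 of 10, beside 30.9% and 18.2%. Several directions turned. With the whole ES list trophoblast had 4 and 1 of 17 and visceral endoderm 6 and 2 of 13 in H3K27ac. When matched by covered bases, parietal endoderm had 1 and 2 of 7 in H3K27ac and 1 and 4 of 9 in H3K4me1, and anterior visceral endoderm 1 and 2 of 4 in H3K4me1. Primordial germ cell genes had 1 and 2 of 6 and 3 and 0 of 6, and adult tissue genes 0 and 0 of 2 and 1 and 3 of 6. With the whole ES list they had 2 and 1 of 9 and 5 and 0 of 10, and 6 and 0 of 12 and 4 and 0 of 14. The parietal endoderm sum was 750 and 951 in H3K27ac and 712 and 1339 in H3K4me1. Genes such as Gata3 also act in mesoderm, and the part of residual extraembryonic cells in the gene calls was not tested.

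Promoters sorted by stage differed in base composition. RefSeq windows were at hand for 17274 of 21631 genes (79.9%), 21045 windows in all. In H3K27ac 6735 windows (32%) were covered in both the kept Pre_PS and the matched ES list, 2013 (9.57%) by regions new at ES, 619 (2.94%) by ES peaks with a Pre_PS peak beside the window, and 797 (3.79%) by Pre_PS peaks whose ES peak lay outside the matched list. Median G and C content was 66.0% in the first class, 59.7% in the windows new at ES, 67.3% in the last class and 47.0% in the 8415 windows with no peak. The median number of CpG was 26, 19, 27 and 3. In H3K4me1 the windows covered in both lists (21.6%) had a median of 66.0% G and C, those new at ES (8.52%) 61.7% and those of Pre_PS peaks outside the matched ES list (4.35%) 64.3%. None of the 17 windows of streak genes was classed as new at ES, beside 9.57% of all windows in H3K27ac and 8.52% in H3K4me1. These windows belong to 13 of the 17 genes. Outside the windows, regions new at ES had 5 of the 17 streak genes as the nearest gene in H3K27ac and 2 in H3K4me1. Other lists ran from 0 of 16 Hox and Cdx to 8 of 18 housekeeping genes in H3K27ac. In H3K4me1 they ran from 1 of 21 trophoblast to 7 of 19 Wnt genes. The share over all genes is not given here. The new H3K27ac region of Nodal began just past its window. In H3K27ac 10 of the 17 streak windows were covered at both stages and 4 had the Pre_PS peak beside them, beside 2.94% of all windows. In H3K4me1 6 were covered at both stages and 8 had the Pre_PS peak beside them, beside 6.18% of all windows, among them T, Eomes, Nodal, Gsc and Sp5. The part of GC content and of depth in these classes was not tested.

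**Figure D5:**
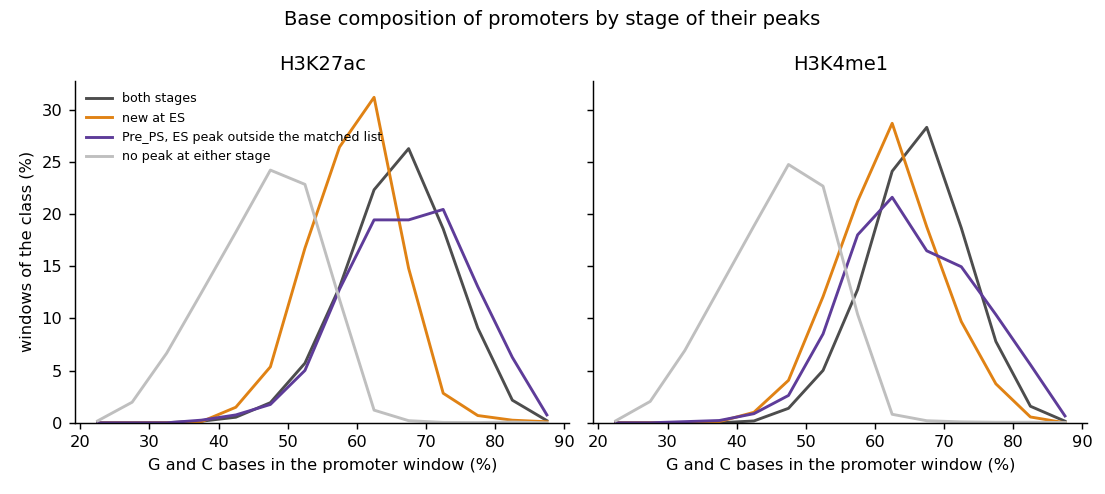
Distribution of G and C content (x axis, percent, in steps of 5) over promoter windows of 300 bases in 4 classes (y axis, percent of the class), for H3K27ac (left) and H3K4me1 (right). In H3K27ac the windows new at ES (orange) lie below those covered at both stages (grey) and those of Pre_PS peaks outside the matched ES list (purple), and windows with no peak (light grey) lie lowest.

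Short motifs were counted in the same classes, and the order of the classes differed by motif and, for the ETS core, by mark. Each was searched on both strands, and none holds another. The ETS core CCGGAAG was in 23.5% of the H3K27ac windows new at ES, 18.0% of those covered at both stages, 10.9% of those of Pre_PS peaks outside the matched ES list and 11.7% of all windows. The GC box GGGCGG was in 63.9%, 78.3%, 77.3% and 46.7%. The CCAAT box was in 42.5%, 35.0%, 28.6% and 38.5%, and the TATA box TATAAA in 5.71%, 4.63%, 6.40% and 12.7%. In H3K4me1 the ETS core was in 22.0% of windows new at ES, 15.5% of those covered at both stages and 18.6% of those of Pre_PS peaks outside the matched ES list. These are counts of letters and not of bound sites, and the windows differ in base composition as given above.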

How the data were processed

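Broad peak lists, 1 for each of 6 stages and 2 marks, were used as the authors deposited them. Bowtie2, Picard, MACS2, deepTools and the build mm10 were used, per the submitters' processing notes, and their roles, versions and settings are not known here (not given in the sources used). Column 7 holds the authors' fold enrichment, and columns 8 and 9 the deposited −log10 p and −log10 q, while the deposited score in column 5 was not used. These are values of each peak in its own list and were used to rank and filter within that list. Read depth is unknown, and no replicate of a stage is analysed here. Pre_PS peaks at their list's lowest fold and p were dropped, and as many ES peaks of highest −log10 q were taken. Overlap means at least 1 bp. Gene territories came from RefSeq GRCm38.p6 (21631 protein-coding genes), and a constant of 20 bp per Mb was added to each share before the 2-fold call. Shares have 95% Wilson intervals, which cover counting error only. The 19 gene lists hold 271 genes.

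Genes named in the text are, per mark, those nearest to the 10 strongest Pre_PS peaks, to the 10 strongest regions new at ES and to the 10 strongest absent at ES, examples of the 10 largest differences in share in each direction, up to 4 called members of each list with the largest differences, and 13 fixed epiblast and streak genes. List members without covered bases and streak promoters are named besides, and some genes that the rule selects are not reported here. The members and lists were chosen with earlier results of these data known. The alternatives changed the matching, the treatment of the lowest peaks, the ranking, the overlap, the constant, the fold, the territory and the later stage. The code was checked on simulated data. Python 3.11.15, numpy 2.4.6, pandas 2.3.3, scipy 1.17.1 and matplotlib 3.10.9 were used.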

Additional observations from a re-analysis of the deposited data

How the results depend on the processing

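No paired analysis was possible because each stage and mark has 1 library, and for the same reason no replicate could be left out. The cause of each change was not tested. Matched ES peaks with no Pre_PS peak were 26.1% in H3K27ac and 23.6% in H3K4me1. They became 20.2% and 19.3% when matched by covered bases, 30.3% and 51.4% with the lowest Pre_PS peaks kept, 15.9% and 18.1% with the upper 50% of the Pre_PS peaks, 68.3% and 59.3% over the whole ES list and 41.7% and 56.4% when 50% of a peak had to be covered. Pre_PS peaks overlapping an ES peak became 88.3% and 55.9% with the lowest kept, 94.3% and 90.2% with MS in place of ES and 92.5% and 89% when 50% had to be covered, and in H3K27ac 97% in the upper 50%. When 50% of a region had to be covered, 96.6% and 97.4% of new regions were at every later stage and 16.2% and 39.3% of absent ones at any. Genes higher at ES numbered 1479 and 2043 with 50 bp per Mb added, and 2153 in H3K4me1 with the lowest kept. Genes higher at Pre_PS numbered 2990 and 3964 when matched by covered bases, and in H3K4me1 1292 with the lowest kept, 1291 with 50 bp per Mb added and 1421 at 3-fold.

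In H3K27ac the genes higher at Pre_PS became 12 (covered bases) and 2 (whole ES list) for neural, 5 (lowest kept), 4 (upper 50%) and 1 (whole ES list) for cardiac, and 13 (covered bases) and 1 (whole ES list) for Hox and Cdx genes. Housekeeping genes higher at ES became 2 (upper 50%) and 4 (whole ES list). Housekeeping calls in H3K4me1 went from 8 and 3 of 15 to 3 higher at ES and 5 higher at Pre_PS of 11 (covered bases). Of 69 other counts of called list members, 39 moved by over 1.5 times, or to or from 0, with covered bases and 39 with the whole ES list. In H3K4me1 the genes higher at ES became 2 (lowest kept) and 3 (whole ES list) for neural, 1 (lowest kept), 2 (whole ES list) and 3 (MS in place of ES) for cardiac, and 3 (lowest kept) and 2 (upper 50%) for Hox and Cdx genes. Log2 ratios that changed sign in H3K27ac were −4.06 for Snai1, −4.57 for Nfic and 2.52 for Wnt3a (upper 50%), 0.29 for Plec, 0.20 for Bcor and 0.13 for Six3 (lowest kept), 0.07 for Uncx and 0.09 for Wnt3a (whole ES list), −1.70 for Bmp4 (covered bases) and −1.35 for Gata3 (covered bases, and ranked by fold). In H3K4me1 they were −0.03 for Gata6, −0.50 for Utf1, −0.10 for Pdgfra and 0.20 for Wnt3a (lowest kept), −1.74 (covered bases) and −2.62 (upper 50%) for Pdgfra, and 0.07 for Wnt3a (MS in place of ES). Besides these, the call changed for 23 of 72 ratios of named genes with the whole ES list and 18 of 72 with the lowest kept. It changed for 11 of 65 with covered bases, 13 of 47 with the upper 50% and 11 of 70 with MS in place of ES. Ranking by fold and territories within 20 kb changed 0 further calls.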
